A study of Mus musculus with 7 samples.

Results

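The genes described are 10 that encode interleukins, colony-stimulating factors and close partners of them: Il6, Il11, Lif, Il1a, Il1b, Il1rn, Il33, Il1rl1, Csf1 and Il34. They were chosen by symbol, as a family, with earlier results of these data known, and include Csf1 and Il34 because both can sustain macrophages. All 10 of the 10 symbols were found among the 53715 genes of the deposited expression table. Apart from Il1rl1 they encode secreted or released proteins, and Il1rl1 encodes the receptor of interleukin-33, which also has a soluble form. RNA was measured in 2 libraries of cells given R406 and 2 libraries of cells given the solvent DMSO. R406 inhibits the kinase Syk and is the active metabolite of fostamatinib. All cells were embryonic fibroblasts of OG2 mice (strain CBA-Tg(Pou5f1-EGFP)2Mnn/J, with a green reporter driven by Pou5f1) from embryonic day 13.5, and the labels call those of the RNA libraries intermediates of pluripotent reprogramming. R406 and DMSO cultures shared the Stage 1 medium, which holds fetal serum, basic fibroblast growth factor, valproic acid, CHIR99021, 616452, Parnate, forskolin, AM580, EPZ004777 and vitamin C and was renewed over 12 days. CUT&Tag, an antibody-guided map of protein on DNA, was made in the same medium with doxycycline from fibroblasts that carried a doxycycline-driven, lentiviral FLAG-Nfatc1 and were collected at day 4, with 1 library given R406 and 1 given DMSO. Neither the R406 dose nor the day of RNA collection is stated in the labels.

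Interleukin-6, interleukin-11 and leukaemia inhibitory factor are ligands that signal through the shared receptor chain gp130, JAK kinases and STAT3, and fibroblasts are a well-known source of them. The interleukin-1 family signals through MyD88 and NF-kappaB: interleukin-1 alpha and beta are its classical inflammatory ligands, the Il1rn product blocks their receptor, and interleukin-33 is held in the nucleus of stromal and barrier cells and acts on the Il1rl1 product, known as ST2, once released. Csf1 and Il34 encode unrelated ligands that share the receptor CSF1R, on which the survival of most macrophages depends.

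Levels are in TPM, a relative abundance scaled by transcript length, which sums to the same total in every library and keeps no read depth. The share of TPM from ribosomal protein genes was 19.4% and 22.4% in R406 libraries and 14.1% and 15.5% in DMSO libraries, and that from mitochondrial genes 6.72% and 10.3% in R406 libraries and 10.5% and 14.2% in DMSO libraries. No label ties a replicate to its own culture. The p-values therefore reflect library-to-library spread, which may be technical.

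Il33 and Il1rl1, a ligand and its receptor, fell steeply in the R406 libraries, and Lif was the 1 tested gene of the family with higher values there. Of the 10 genes, 8 were above 0 TPM in some library and 6 reached the mean of 1 TPM needed for the test. With limma on log2(TPM + 1) and Benjamini-Hochberg adjustment over 13929 genes, 2 of these 6 fell and 0 rose at an adjusted p of 0.05, where 4.05% of all genes tested fell, 4.26% rose and 8.31% passed in either direction. All 6 tested genes had an unadjusted p under 0.05, a mark that 26.8% of all genes tested reached, and in all 6 the R406 and DMSO libraries did not overlap, which held for 56.1% of all genes tested. The median log2 difference was −0.98 over these 6 and −0.0155 over all genes tested. Il11 and Il1rl1 passed the filter through their DMSO values, and the genes were chosen with earlier results known. These counts therefore describe the family and do not set it apart.

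**Figure D1:**
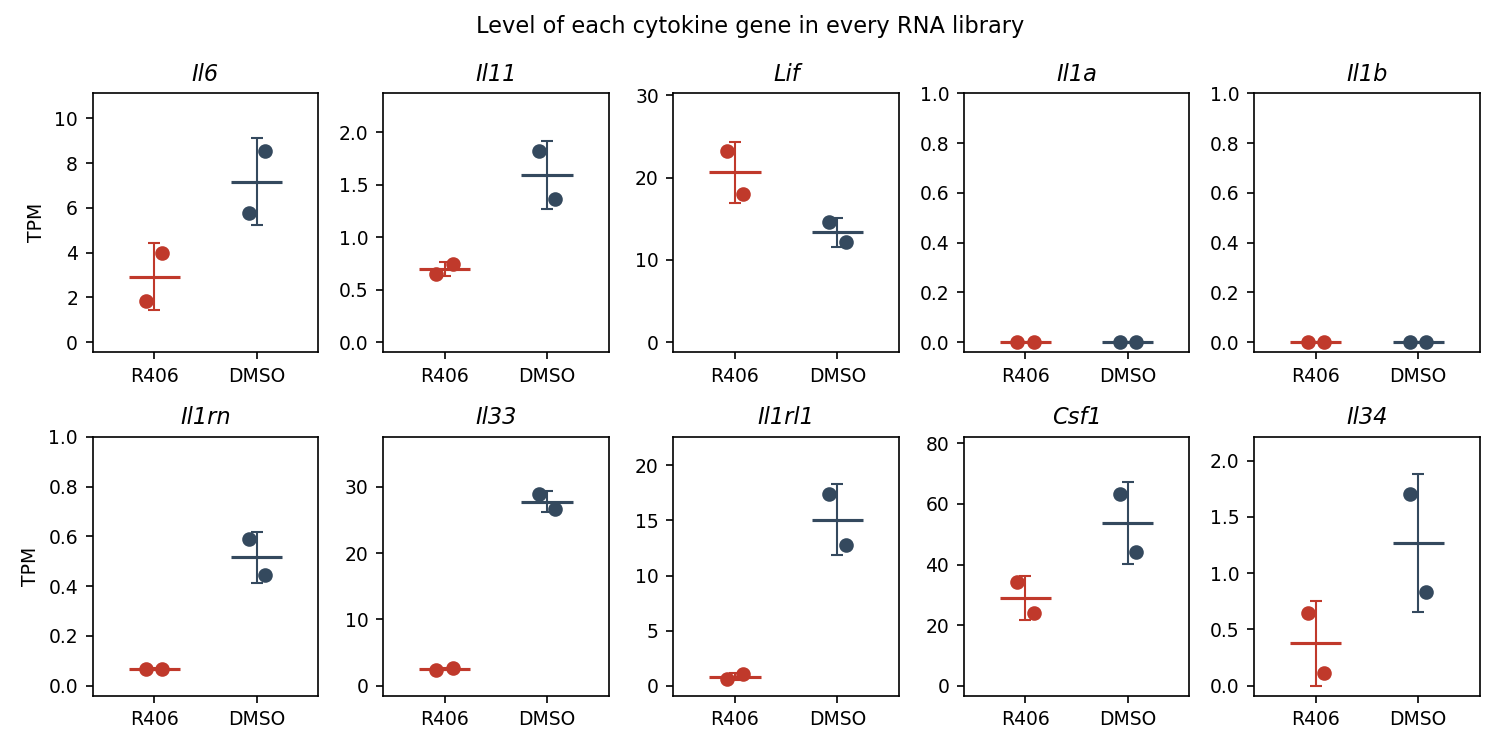
Level in TPM of each of the 10 genes in every RNA library, on a linear axis that includes 0 and has its own range in each panel. Points are single libraries, horizontal lines are means and bars are SD (n = 2 for R406 and n = 2 for DMSO). Il33 stood at 2.43 and 2.64 TPM in R406 libraries and at 28.8 and 26.7 TPM in DMSO libraries, and Il1a and Il1b were listed at 0 throughout.

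Within the family the order of levels differed between treatments. In R406 libraries Csf1 was first, at 23.9 to 34.2 TPM, and Lif followed at 18.0 to 23.2 TPM. Il6 at 1.86 to 3.98 TPM and Il33 at 2.43 to 2.64 TPM came next and overlapped. Il11, Il1rl1 and Il34 lay at about the level of 1 TPM or less, with overlap between Il1rl1 and both others, and Il1rn was lowest. In DMSO libraries Csf1 was first as well, at 44.0 to 63.1 TPM, followed by Il33 at 26.7 to 28.8 TPM. Il1rl1 at 12.8 to 17.4 TPM and Lif at 12.1 to 14.6 TPM overlapped there, Il6 came below them at 5.80 to 8.55 TPM, and Il11 and Il34 overlapped at 0.837 to 1.82 TPM.

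The summed TPM of the 10 genes was 63.7 and 50.5 in R406 libraries and 134 and 107 in DMSO libraries. Lif made up 36.5% and 35.7% of that sum in R406 libraries, against 10.9% and 11.4% in DMSO libraries. Il33 made up 3.82% and 5.22% in R406 libraries, against 21.6% and 24.96% in DMSO libraries. Csf1 held the largest share in each of the 4 libraries, at 53.6% and 47.3% with R406 and 47.2% and 41.2% with DMSO. A share also depends on the sum, which was lower with R406. Lif itself measured 23.2 and 18.0 TPM with R406 and 14.6 and 12.1 TPM with DMSO, a smaller contrast than that of its shares. These shares are descriptions without a test.

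**Figure D2:**
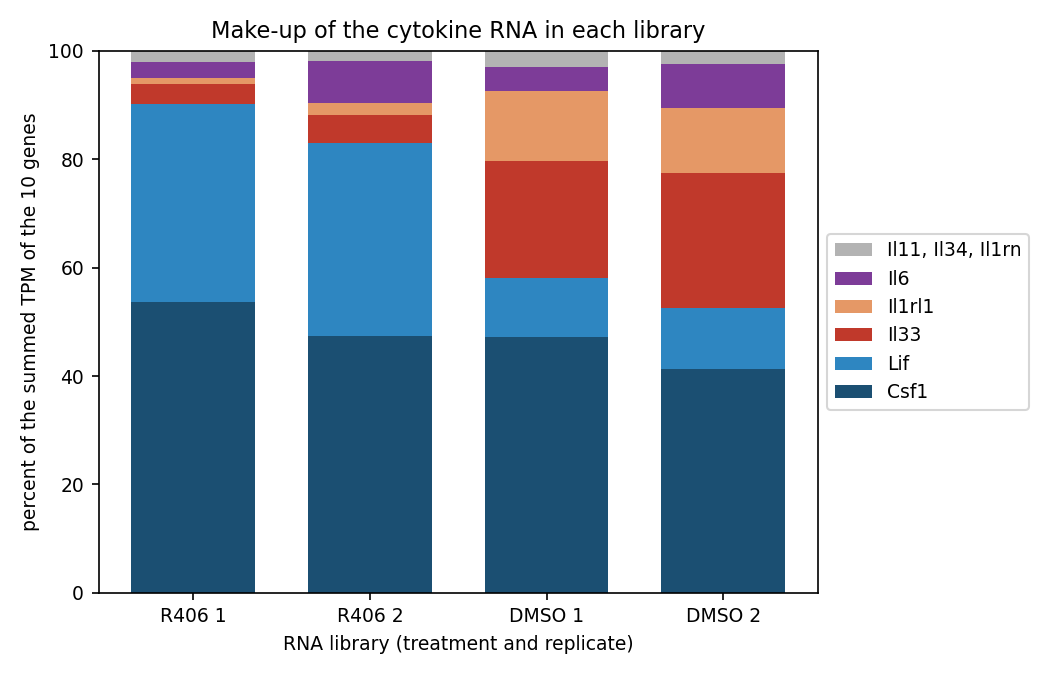
Share of each gene, in percent, in the summed TPM of the 10 genes, for each RNA library. Bars are stacked from 0 to 100. The Lif band is 36.5% and 35.7% with R406 and 10.9% and 11.4% with DMSO, while the Il33 and Il1rl1 bands are thin with R406. The summed TPM itself was lower with R406.

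Il33 encodes interleukin-33, the alarm signal that damaged stromal cells release, and it lies on chr19:29925113-29960718 in the RefSeq annotation of GRCm38.p6, the assembly that mm10 names. It measured 2.43 and 2.64 TPM in the R406 libraries and 28.8 and 26.7 TPM in the DMSO libraries, so both R406 values lay far below both DMSO values. The mean was 2.53 ± 0.145 TPM with R406 and 27.7 ± 1.55 TPM with DMSO (SD, n = 2 each), and the R406 mean was 9.13% of the DMSO mean. The log2 difference was −3.02 ± 0.18 (SE), with an adjusted p of 0.00886 by limma. The span of Gm41832 overlaps that of Il33, and without strand the reads of the overlap cannot be told apart. With 1 added to each TPM value, the log2 difference is smaller than the log2 ratio of the means, most of all at low levels.

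Il1rl1 encodes ST2, the receptor through which interleukin-33 acts, and lies on chr1:40404864-40465418. It measured 0.631 and 1.04 TPM in the R406 libraries and 17.4 and 12.8 TPM in the DMSO libraries, again without overlap. The mean was 0.834 ± 0.286 TPM with R406 and 15.1 ± 3.23 TPM with DMSO (SD, n = 2 each), and the R406 mean was 5.53% of the DMSO mean. The log2 difference was −3.13 ± 0.24 (SE), with a limma adjusted p of 0.0125. The gene-level value sums the membrane-bound and the soluble form of ST2, so it does not show which of them changed. In bulk RNA, fewer cells of a type and less RNA per cell cannot be told apart.

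With any single library left out, the log2 difference ran from −3.08 to −2.97 for Il33 and from −3.33 to −2.92 for Il1rl1. Such a fit leaves a single library in a group, whose spread it cannot measure. Both genes missed the threshold when the filter on low values was dropped (27879 genes tested, limma adjusted p = 0.0593 for each).

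**Figure D3:**
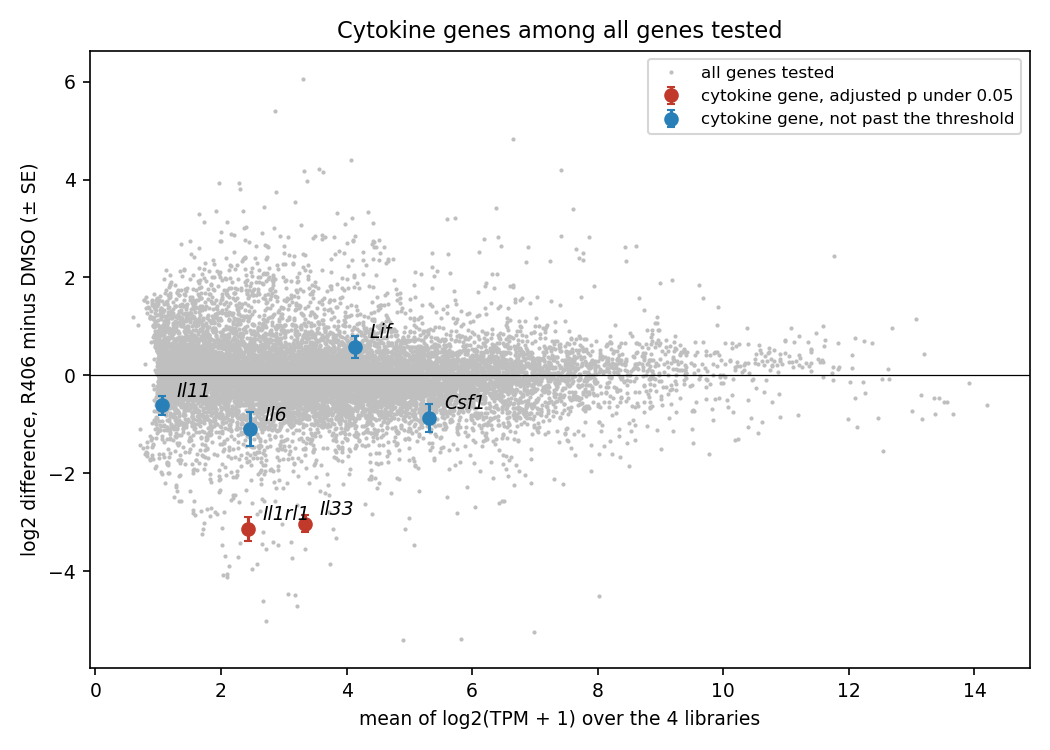
Log2 difference, R406 minus DMSO, against the mean of log2(TPM + 1) over the 4 libraries. Grey points are all genes tested, coloured points are the 6 tested cytokine genes and bars are SE from limma. Il33 and Il1rl1 sit at −3.02 and −3.13, and Lif is the 1 coloured point above 0.

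Upstream sequences of Il33 and Il1rl1 are printed because these are the genes that fell. Each has a pair of starts in the promoter table, between which the gene-level values do not distinguish. The span of Il1rl1 begins upstream of both its listed starts, at chr1:40404864, so its windows leave out that end of the gene. Sequences are the 250 bases before each start, 5′ to 3′ on the strand of the gene, from RefSeq on GRCm38.p6; 9 of the 10 genes matched the promoter table and Il34 had no entry. Capitals mark matches on either strand to the core NFAT motif GGAAA, the AP-1 motif TGANTCA or the NF-kappaB form GGG, any 2 bases, TTTCC, which contains a GGAAA match on its other strand. Over all 32851 annotated promoters of this length, 55.6% held GGAAA, 6.75% held TGANTCA and 1.41% held the NF-kappaB form.
Il33, first start, chr19:29924863-29925112, + strand: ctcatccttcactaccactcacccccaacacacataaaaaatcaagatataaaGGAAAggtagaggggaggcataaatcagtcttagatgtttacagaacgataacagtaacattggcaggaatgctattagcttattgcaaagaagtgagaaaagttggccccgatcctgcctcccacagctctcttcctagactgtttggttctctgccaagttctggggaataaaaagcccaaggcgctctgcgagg
Il33, second start, chr19:29945540-29945789, + strand: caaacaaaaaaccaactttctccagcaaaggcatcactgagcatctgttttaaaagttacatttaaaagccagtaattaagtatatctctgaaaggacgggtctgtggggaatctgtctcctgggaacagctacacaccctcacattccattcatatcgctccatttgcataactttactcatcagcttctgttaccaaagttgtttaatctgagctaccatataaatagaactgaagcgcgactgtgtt
Il1rl1, first start, chr1:40429320-40429569, + strand: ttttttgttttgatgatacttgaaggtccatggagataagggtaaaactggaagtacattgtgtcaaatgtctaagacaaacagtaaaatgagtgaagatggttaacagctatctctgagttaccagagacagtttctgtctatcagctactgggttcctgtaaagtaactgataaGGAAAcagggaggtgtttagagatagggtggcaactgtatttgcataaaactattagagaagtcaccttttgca
Il1rl1, second start, chr1:40439379-40439628, + strand: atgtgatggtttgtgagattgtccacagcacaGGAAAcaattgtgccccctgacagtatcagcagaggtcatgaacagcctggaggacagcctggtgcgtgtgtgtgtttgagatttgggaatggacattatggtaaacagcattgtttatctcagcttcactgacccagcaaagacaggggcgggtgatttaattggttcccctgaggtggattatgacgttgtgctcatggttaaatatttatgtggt

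Those windows held few matches. The first start of Il33 and each listed start of Il1rl1 had 1 GGAAA match, and the second start of Il33 had 0. TGANTCA and the NF-kappaB form were absent from these 4 windows. A match is a run of letters and not a site of binding, and its absence says only that the letters are not in the window.

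The remaining interleukin-1 genes were low or not seen. Il1rn, which encodes the antagonist of the interleukin-1 receptor, measured 0.0688 and 0.0656 TPM in R406 libraries and 0.588 and 0.444 TPM in DMSO libraries. Its libraries did not overlap, and the R406 mean was 13.0% of the DMSO mean. It was too low for the test, and with no filter on low values its limma adjusted p was 0.0858. Il1a and Il1b were listed at 0 in all 4 libraries. Depth is unknown and an exact 0 in this table can be a failed estimate, so their level below detection cannot be given.

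Receptor and processing genes around the interleukin-1 family showed single calls. Of 8 genes for its receptors, decoys and inhibitors, 3 were high enough to test and 0 passed limma's threshold, with a median log2 difference of −0.17. The 1 with an unadjusted p under 0.05 was Sigirr, an inhibitory receptor, at 7.98 and 3.44 TPM with R406 and 0.955 and 1.24 TPM with DMSO (limma adjusted p = 0.0703), named after its values were seen. Il1r1, the signalling receptor of interleukin-1, measured 3.13 and 3.59 TPM with R406 and 4.71 and 4.04 TPM with DMSO (limma adjusted p = 0.391). Il1rap, the co-receptor that Il1r1 and ST2 share, measured 11.0 and 15.3 TPM with R406 and 13.9 and 15.5 TPM with DMSO (limma adjusted p = 0.698). Thus the co-receptor overlapped between treatments in the libraries where ST2 fell. Of 4 tested genes of processing and release, 1 rose and 0 fell, with a median of 0.20. The riser was Pycard, the inflammasome adaptor, at 6.03 and 5.00 TPM with R406 and 1.62 and 1.91 TPM with DMSO (log2 1.23 ± 0.20, SE, limma adjusted p = 0.0328). Pycard lost its call without R406 replicate 1 (adjusted p = 0.0580), DMSO replicate 1 (0.142) or DMSO replicate 2 (0.0753). Of 6 other interleukin-1 family ligands 5 were matched and 0 reached the test. Il18 was listed at 1.57 and 1.44 TPM with R406 and at 0 and 0.540 TPM with DMSO.

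In the interleukin-6 family, Il6 and Il11 were lower and Lif higher in the R406 libraries, each without overlap and each short of the threshold. Il6, the inflammatory ligand, measured 1.86 and 3.98 TPM with R406 and 5.80 and 8.55 TPM with DMSO. Both R406 libraries lay below both DMSO libraries, and the log2 difference was −1.09 ± 0.35 (SE, limma adjusted p = 0.128). Without R406 replicate 2, the higher of the R406 values, the difference was −1.49, and without R406 replicate 1 it was −0.69. Il11, a ligand that fibroblasts release under TGF-beta, measured 0.650 and 0.743 TPM with R406 and 1.82 and 1.37 TPM with DMSO (log2 −0.61 ± 0.20, SE, limma adjusted p = 0.134).

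Lif, which is used to keep mouse embryonic stem cells in the pluripotent state, ran the other way. It measured 23.2 and 18.0 TPM in R406 libraries and 14.6 and 12.1 TPM in DMSO libraries. The mean was 20.6 ± 3.69 TPM with R406 and 13.3 ± 1.74 TPM with DMSO (SD, n = 2 each), a log2 difference of 0.59 ± 0.22 (SE, limma adjusted p = 0.178). The ratio of Lif to Il6 was 12.5 and 4.53 in R406 libraries and 2.52 and 1.42 in DMSO libraries. That ratio was above the DMSO values in both R406 libraries, which follows from the higher Lif and lower Il6 values there. It was not tested, and the gap between the R406 libraries was wide.

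Genes for gp130 and the ligand-specific chains gave 1 call among 6 tested, and the median log2 difference was −0.11. Osmr, the chain of the oncostatin M receptor, fell to 8.82 and 9.40 TPM with R406, against 22.9 and 24.1 TPM with DMSO (log2 −1.28 ± 0.18, SE, limma adjusted p = 0.0257). Osmr lost its call without DMSO replicate 1 (adjusted p = 0.111) or DMSO replicate 2 (0.102). Il6st, which encodes gp130, measured 12.9 and 13.4 TPM with R406 and 8.75 and 10.2 TPM with DMSO (adjusted p = 0.225), and Il6ra, the chain that binds interleukin-6, 3.43 and 3.43 TPM with R406 and 1.81 and 2.19 TPM with DMSO (adjusted p = 0.140). Il11ra1 at 78.0 and 50.2 TPM with R406 and 84.5 and 55.0 TPM with DMSO overlapped between treatments. Lifr, the receptor of Lif, measured 9.64 and 10.1 TPM with R406 and 10.4 and 11.0 TPM with DMSO (limma adjusted p = 0.771). Of 7 other ligands of the family 3 were tested and 0 passed, with 2 at an unadjusted p under 0.05, both lower with R406, and a median of −1.07.

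Signalling genes downstream gave 2 calls. Of 14 JAK and STAT genes, all tested, 2 fell and 0 rose (median −0.38), where 8.31% of all genes tested passed in either direction. An unadjusted p under 0.05 was reached by 5 of them (1 higher, 4 lower) and by 26.8% of all genes tested. The kinase gene Jak1 measured 31.7 and 29.6 TPM with R406 and 64.9 and 60.5 TPM with DMSO (log2 −1.01 ± 0.18, SE, limma adjusted p = 0.0381), a call that was lost on leaving out any 1 library (adjusted p of 0.0705 to 0.228). Stat5a measured 6.20 and 4.12 TPM with R406 and 16.2 and 15.8 TPM with DMSO (log2 −1.49 ± 0.24, SE, limma adjusted p = 0.0319), and missed the threshold without DMSO replicate 1 (0.107) or DMSO replicate 2 (0.0727). Stat3 measured 33.1 and 26.5 TPM with R406 and 45.9 and 43.0 TPM with DMSO (limma adjusted p = 0.154). Socs3, the feedback inhibitor of gp130, measured 118 and 68.1 TPM with R406 and 154 and 107 TPM with DMSO (adjusted p = 0.412). Stat3 and Socs3 were named after their values were seen. Of 17 tested MyD88 and NF-kappaB genes 0 passed limma's threshold, 4 had an unadjusted p under 0.05 (1 higher, 3 lower) and the median was −0.16. Of 7 tested genes whose proteins destabilise cytokine mRNAs 0 passed, 1 had an unadjusted p under 0.05 and the median was 0.044.

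**Figure D4:**
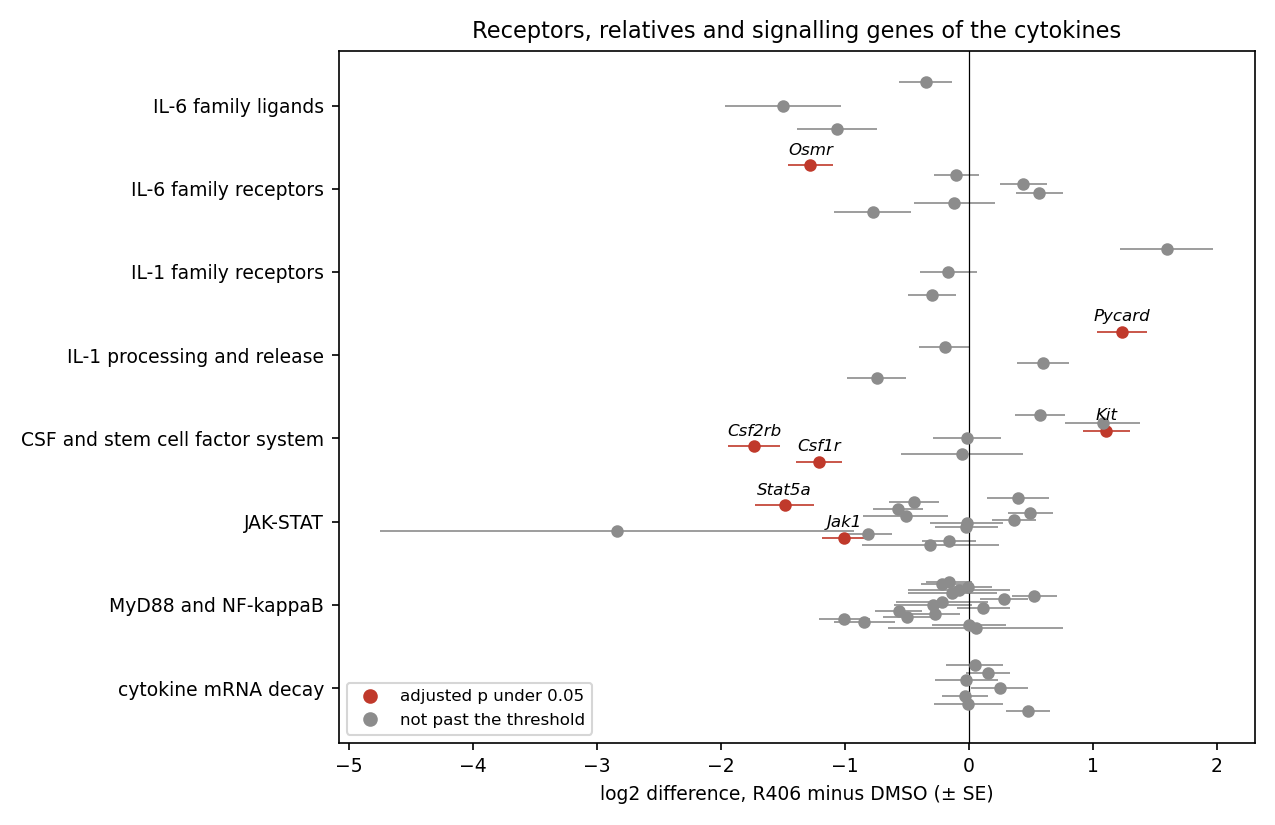
Log2 difference, R406 minus DMSO, of each tested gene in 8 lists around the cytokines, with bars for SE from limma. Red points passed an adjusted p of 0.05 and are named. Calls stand in 4 of the lists, with Osmr, Csf2rb, Csf1r, Stat5a and Jak1 lower and Pycard and Kit higher with R406. The far-left point in the JAK-STAT row is Junb, which was listed at 0 in R406 replicate 2.

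Csf1, the growth factor of macrophages that fibroblasts make, was the most abundant gene of the family in every library and was lower with R406 without passing the test. It measured 34.2 and 23.9 TPM in R406 libraries and 63.1 and 44.0 TPM in DMSO libraries, so the groups did not overlap. The mean was 29.0 ± 7.28 TPM with R406 and 53.6 ± 13.5 TPM with DMSO (SD, n = 2 each), the R406 mean being 54.2% of the DMSO mean. The log2 difference was −0.86 ± 0.29 (SE), with a limma adjusted p of 0.138. Il34, the other ligand of CSF1R, measured 0.644 and 0.110 TPM with R406 and 1.70 and 0.837 TPM with DMSO. Il34 was too low for the test and overlaps 3 predicted genes in the annotation, whose reads cannot be told apart from its own without strand. The same limit holds for Csf1 (overlapped by Gm40121), Il6 (A230098N10Rik), Il11 (Tmem190) and Il33 (Gm41832). Csf1 exceeded Il34 by 53.1 and 217 times in R406 libraries and by 37.1 and 52.6 times in DMSO libraries.

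The receptor of both ligands passed the filter only through its DMSO values. Csf1r measured 0.685 and 0.626 TPM with R406 and 3.04 and 2.62 TPM with DMSO (log2 −1.21 ± 0.19, SE, limma adjusted p = 0.0302). It lost its call without DMSO replicate 1 (adjusted p = 0.109) or DMSO replicate 2 (0.0534), and with no filter on low values (0.0872). The ratio of Csf1 to Csf1r was 49.9 and 38.1 in R406 libraries and 20.8 and 16.8 in DMSO libraries, and whether the log2 differences of the ligand and the receptor differ was not tested. Ptprz1, a second receptor of interleukin-34, measured 8.19 and 7.86 TPM with R406 and 4.51 and 5.72 TPM with DMSO (adjusted p = 0.157).

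Of 11 genes for other colony-stimulating and stem cell factors and their receptors, 7 were tested, 1 rose and 2 fell, Csf1r among them (median −0.019). Csf2rb, the shared beta chain of the GM-CSF, interleukin-3 and interleukin-5 receptors, fell to 0.576 and 0.254 TPM with R406, against 3.56 and 3.80 TPM with DMSO (log2 −1.74 ± 0.21, SE, limma adjusted p = 0.0192). Mouse Csf2rb has a close paralog, so its value is uncertain, and it too passed the filter only through its DMSO values (adjusted p = 0.0694 with no filter). Kit, the receptor of stem cell factor, rose to 11.0 and 9.42 TPM with R406, against 4.30 and 4.09 TPM with DMSO (limma adjusted p = 0.0373), and passed in only 1 of the 4 fits that left out a library, that without R406 replicate 2. Csf2 was listed at 0 in all 4 libraries, and Csf3 was above 0 in DMSO replicate 1 alone, at 0.0613 TPM.

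Most markers of macrophages, cells that respond to Csf1 and make Il1rn, were lower with R406. The summed level of 18 macrophage markers was 22.0 and 23.9 TPM in R406 libraries and 295 and 248 TPM in DMSO libraries. Of the 12 tested, 11 fell and 0 rose, but 9 of the 11 averaged under 1 TPM with R406 and entered the test only through their DMSO values, so the count is a description. The number lower was 3 among genes averaging 5 TPM or more and 0 with no filter. Lyz2, the macrophage lysozyme, measured 3.86 and 3.33 TPM with R406 and 207 and 179 TPM with DMSO, most of the DMSO sum. Cd14, the tested marker without a call, measured 14.2 and 15.4 TPM with R406 and 14.8 and 9.04 TPM with DMSO (limma adjusted p = 0.516). It made up most of the R406 sum. Aif1, too low for the test, also overlapped between treatments. Of the defining markers Ptprc and Itgam were listed at 0 in both R406 libraries and at 0.0829 to 0.256 TPM in DMSO libraries. The part of macrophages in the values of Il33, Il1rl1, Il1rn, Csf1 and Csf1r was not tested.

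Other cell types known to carry ST2 or interleukin-33 were checked by their markers. For mast cells, Fcer1a was at 0 in all 4 libraries, Cpa3 at 0 and 0 TPM with R406 and 0 and 0.0449 TPM with DMSO, and Ms4a2 at 0 and 0 TPM with R406 and 0.0341 and 0.0548 TPM with DMSO. Other markers of the list were present: Gata2 measured 4.503 and 2.84 TPM with R406 and 6.11 and 3.06 TPM with DMSO, and Cma1, mast cell chymase, 3.895 and 2.36 TPM with R406 and 0.588 and 0.644 TPM with DMSO. The summed level of the 9 mast cell markers was 20.3 and 15.7 TPM with R406 and 11.3 and 8.24 TPM with DMSO, mostly from Kit, Gata2 and Cma1. Of 3 tested, Kit and Cma1 rose, and 0 were called without R406 replicate 1, DMSO replicate 1 or DMSO replicate 2 (Cma1 at a limma adjusted p of 0.0443 with all libraries, and of 0.0555, 0.123 and 0.0804 in those fits). Cma1 passed the filter on low values only through its R406 values. Of 6 T cell and innate lymphoid markers 1 was tested and 0 were called by limma (1 at an unadjusted p under 0.05). Their sum was 6.42 and 6.63 TPM with R406 and 3.30 and 2.63 TPM with DMSO, nearly all of it from Gata3, the 1 tested, at 6.06 and 6.29 TPM with R406 and 3.15 and 2.31 TPM with DMSO (limma adjusted p = 0.0604). The T cell markers Cd3e and Cd3d were at 0 throughout. Of 7 neutrophil markers 2 were tested and 1 fell (0 without DMSO replicate 1), with a sum of 6.42 and 9.42 TPM with R406 and 31.9 and 27.0 TPM with DMSO.

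Markers of structural cell types were mixed or higher with R406. Of 9 fibroblast markers, all tested, 2 rose and 1 fell, with a median of −0.0032 and sums of 4236 and 2990 TPM with R406 and 2957 and 2510 TPM with DMSO. The risers were Col3a1 (log2 1.58) and Postn (1.68), and the lower one was Fn1 (−1.16). Thy1, a fibroblast surface protein, measured 837 and 749 TPM with R406 and 1145 and 1065 TPM with DMSO, without a call (limma adjusted p = 0.191). Of 7 endothelial markers 5 were tested and 1 rose (sums of 26.4 and 18.4 TPM with R406 and 13.9 and 12.9 TPM with DMSO). The one that rose was Esam, at 11.2 and 7.02 TPM with R406 and 1.22 and 1.18 TPM with DMSO (limma adjusted p = 0.0193). Pecam1 and Emcn stayed at 0.355 TPM or less, and other markers of the list were present. Cdh5 measured 3.58 and 1.49 TPM with R406 and 0.925 and 0.709 TPM with DMSO (limma adjusted p = 0.176). Kdr measured 6.91 and 6.49 TPM with R406 and 8.27 and 8.66 TPM with DMSO, and Vwf 3.45 and 2.12 TPM with R406 and 2.01 and 1.06 TPM with DMSO. Of 8 epithelial markers 7 rose (sums of 834 and 476 TPM with R406 and 159 and 154 TPM with DMSO). Of 6 tested extraembryonic endoderm markers 4 rose, with sums of 280 and 162 TPM for all 8 with R406 and 40.9 and 53.0 TPM with DMSO. Without DMSO replicate 1 the number that rose was 3 for epithelial, 2 for endoderm and 0 for fibroblast markers, and without DMSO replicate 2 it was 1 for fibroblast markers. Without R406 replicate 2 it was 2 for endothelial markers, and the 1 lower fibroblast marker was not called there or without either DMSO library. The part of any of these cell types, mast cells, lymphoid cells and neutrophils included, in the cytokine values was not tested.

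FLAG-Nfatc1 peaks lay near most of the cytokine genes, and at Il6 and Csf1 they covered the annotated start in both libraries. Within 10 kb of the gene, 8 of the 10 genes had a peak in the R406 list and 6 had a peak in the DMSO list. Among 21887 protein-coding genes, 59.2% had such a peak in the R406 list and 43.8% in the DMSO list, and the lists held 36885 and 21246 peaks. With 1 library per condition there is no replicate check, and a fold is the authors' value for a peak within its own list. In all, 5 genes had peaks that overlapped between the lists: Il6, Il1rn, Il1rl1, Csf1 and Il34. The share of all genes with overlapping peaks, or with a peak over a start in both lists, was not counted. Both observations are therefore descriptions and do not set these genes apart. Il11, Lif and Il1a had a peak in the R406 list alone, Il33 in the DMSO list alone, and Il1b in neither.

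The peak at Il6 spanned chr5:30013029-30013383 in the R406 list, with a fold of 9.49, and chr5:30013036-30013293 in the DMSO list, with a fold of 9.47. Its summit lay 102 bases downstream of the start in the R406 list and 105 bases downstream in the DMSO list. At Csf1 the peak spanned chr3:107760115-107760597 in the R406 list (fold 17.1) and chr3:107759991-107761095 in the DMSO list (fold 8.74), both across the start. Its summits lay on opposite sides of the start, 0.21 kb downstream in the R406 list and 0.442 kb upstream in the DMSO list. A weaker peak lay 9.27 kb downstream of the start in the R406 list alone (fold 5.69). The upstream sequences of these genes are printed because the peaks reach into them.
Il6, chr5:30012864-30013113, + strand: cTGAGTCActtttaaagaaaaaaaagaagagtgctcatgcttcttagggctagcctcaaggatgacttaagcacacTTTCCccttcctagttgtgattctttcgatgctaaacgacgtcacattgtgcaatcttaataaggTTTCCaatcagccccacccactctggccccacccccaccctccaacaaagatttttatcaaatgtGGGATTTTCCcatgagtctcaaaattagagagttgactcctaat
Csf1, chr3:107760470-107760719, − strand: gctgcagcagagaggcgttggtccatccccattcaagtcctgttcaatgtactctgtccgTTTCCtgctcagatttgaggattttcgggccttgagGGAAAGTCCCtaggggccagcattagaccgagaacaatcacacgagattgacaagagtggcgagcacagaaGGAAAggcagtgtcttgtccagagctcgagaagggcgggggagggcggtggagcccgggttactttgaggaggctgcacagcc

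The Il6 window held 3 matches to GGAAA or its reverse TTTCC, 1 to TGANTCA and 1 to the NF-kappaB form. The NF-kappaB match, at −44 to −35 from the start, and the TTTCC within it lie inside both Il6 peaks. The other Il6 matches lie upstream of both peaks. The Csf1 window held 3 GGAAA matches, 0 to TGANTCA and 1 to the NF-kappaB form. The DMSO peak covers the whole Csf1 window. The R406 peak covers only the GGAAA match at −83 to −79 from the start, and the other Csf1 matches lie upstream of it. In each window 1 of the 3 GGAAA matches is part of the NF-kappaB match.

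At Il1rl1 the strongest of the family's peaks lay inside the gene. It spanned chr1:40444716-40445325 in the R406 list, with a fold of 22.1, and chr1:40444535-40445182 in the DMSO list, with a fold of 32.8. Its summits were 5.32 kb and 5.39 kb downstream of the second start. A further peak at chr1:40435852-40436788, 3.33 kb upstream of the second start, was in the DMSO list alone (fold 13.1). Neither list had a peak over a start of Il1rl1 in the promoter table. The gene table used gives spans without exons, so exonic and intronic positions were not resolved.

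Il33 had no peak within 10 kb in the R406 list, and in the DMSO list a single weak peak (fold 5.10) 7.54 kb upstream of its first start, at chr19:29917310-29917573. Il1rn had an overlapping peak in both lists inside the gene, with a fold of 8.22 in the R406 list and 19.7 in the DMSO list. Il34 had 6 peaks in the R406 list, with folds of 4.43 to 13.3, and 2 in the DMSO list, each with a fold of 6.56. Lif had a peak 4.15 kb downstream of its start in the R406 list, with a fold of 8.22.

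**Figure D5:**
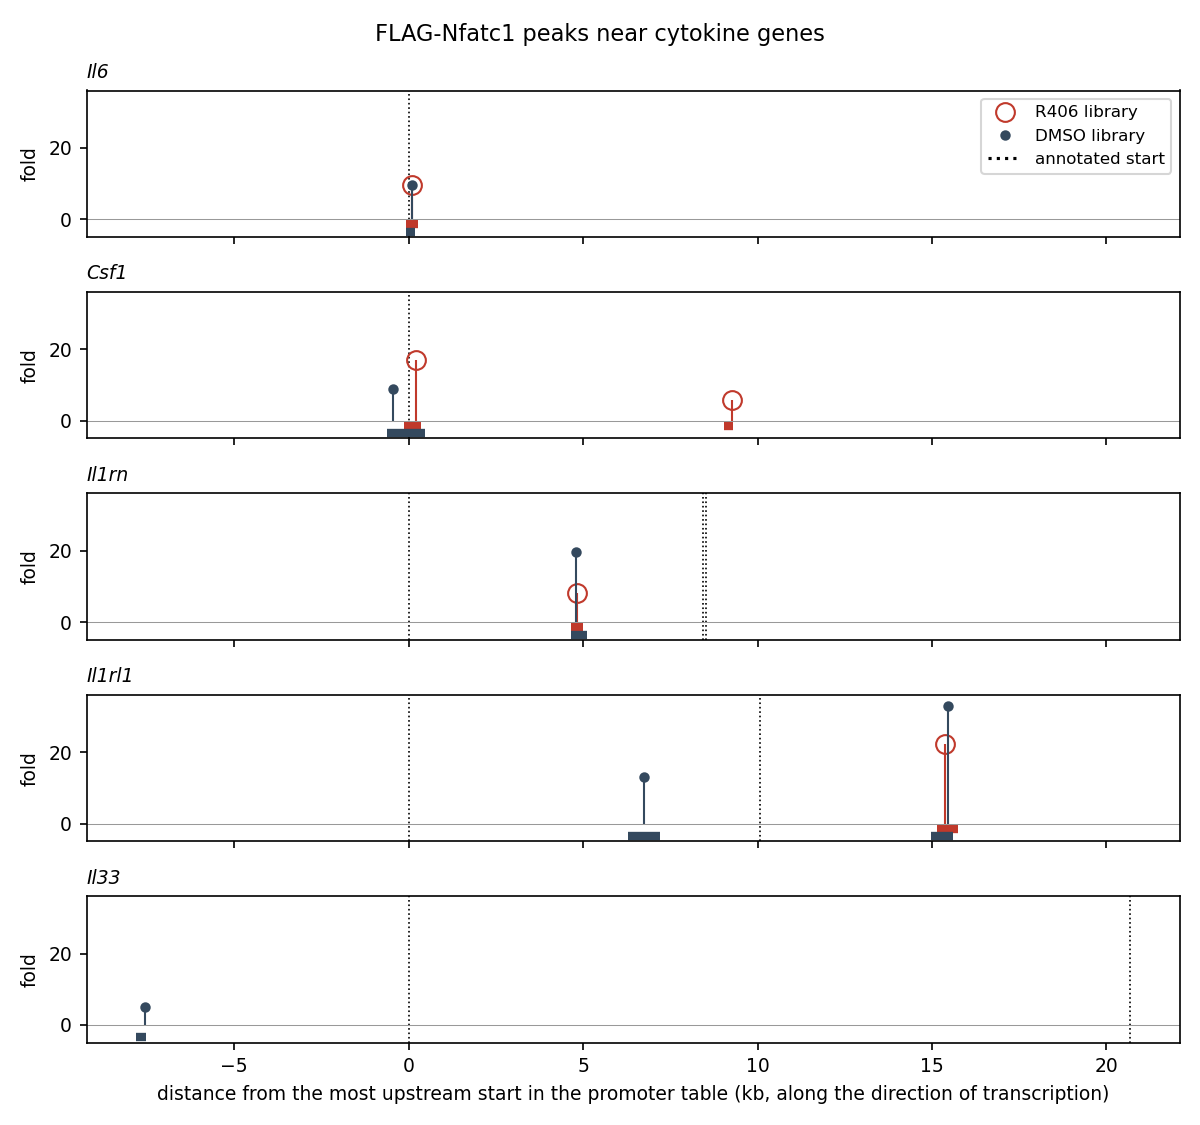
Peaks of FLAG-Nfatc1 near 5 genes, by distance in kb from the most upstream start in the promoter table, along the direction of transcription. Points are peak summits at the authors' fold within each list, bars below 0 are peak widths and dotted lines are annotated starts. Peaks of both lists cover the start of Il6 and of Csf1, and those of Il1rl1 lie 5.32 and 5.39 kb after its second start.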

How the data were processed

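RNA-seq covered 4 libraries and CUT&Tag 2, and a CUT&Tag library made without primary antibody was not analysed here. The authors deposited TPM per gene and library, and the 4 single-library files equalled the columns of the series table. Per the submitters' processing notes, HISAT2 2.1.0 and StringTie 2.0 were used on mm10 for RNA, and Bowtie2 2.2.5 and MACS2 2.1.2 for CUT&Tag. Peak lists, as deposited, give each peak a score, its fold over background, and −log10 values of p and q. The deposited score is −log10 p times 10 without its decimals in 100% of peaks. Per the labels' protocols, RNA libraries came from an NEBNext Ultra kit, which marks no strand. Which annotation, peak control and peak limits were used is not given in the sources.

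IDs were matched to symbols for 53620 of 53715 genes. Treatments were compared by two-sided limma tests (limma 3.58.1, R 4.3.3) of log2(TPM + 1), R406 minus DMSO, with a mean-dependent prior variance. Genes had to average 1 TPM or more over the 4 libraries. The code was tested on simulated data. The precision rests on 2 libraries per group, and depth is unknown. Peaks within 10 kb of a gene's span were assigned to it. Named genes were all 10 cytokine genes, 8 receptors whatever their p, up to 4 called genes with the smallest p in each of 18 lists (given as counts where no cytokine result turns on them) and the 3 genes nearest in profile to each of 2 cytokine genes. The cytokine genes and lists were chosen with earlier results of these data known. Alternatives were other pseudocounts, filters, scalings, a prior without trend, a replicate block, left-out libraries, other peak windows and a stricter peak limit.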

Additional observations from a re-analysis of the deposited data

How the results depend on the processing

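Il33 and Il1rl1 kept their direction under all 13 alternatives and their calls under 12 of them; with no filter on low values the adjusted p was 0.0593 for both, and 0 genes were called in either direction among 27879, with 5394 at an unadjusted p under 0.05. Il6, Il11, Lif and Csf1 kept their direction in every alternative run. Leaving out 1 library gave 0 cytokine genes higher and 2 to 3 lower, 159 to 914 genes higher and 158 to 574 lower over all genes, and 16 to 35 called list genes, against 34 with all libraries. Il11ra1 and Il1rap, with no call, changed sign in some of these: log2 differences ran from −0.43 to 0.19 for Il11ra1 (above 0 without R406 replicate 2 or DMSO replicate 1) and from −0.39 to 0.054 for Il1rap (above 0 without R406 replicate 1); the cause was not tested.

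Over all genes, 593 were higher and 564 lower. Among genes averaging 5 TPM or more these were 311 and 332 (fewer genes tested). With median centring 933 were higher and 755 lower, and with quantile normalization 877 were higher and 850 lower. With no filter, 0 cytokine genes and 0 list genes were called.

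Replicate numbers pair libraries only by name, since no label ties a number to a culture. Deviations of the libraries numbered 1 had a correlation of 0.556 between R406 and DMSO across 13929 genes. With the number as a replicate block, 2128 genes were higher and 2535 lower, 54 list genes were called, and of the cytokine genes 1 was higher (Lif, adjusted p = 0.0220) and 4 were lower (Il33, Il1rl1, Csf1 at 0.00669 and Il6 at 0.0128). This fit has 1 residual degree of freedom per gene, and so does each fit that leaves out a library. There, a group with a single library has no measured spread.

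The number of cytokine genes with a peak was 7 to 9 in the R406 list and 4 to 8 in the DMSO list under the other windows and limit. Read depth behind TPM is unknown, which limits statements on Il1a, Il1b, Il1rn and Il34.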

Other observations

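Interleukins of other families were largely unseen in these cultures. Of 24 genes, 10 were listed at 0 in all 4 libraries, 20 stayed below 1 TPM in each library, and 4 were tested, of which 0 passed limma's threshold and 1 had an unadjusted p under 0.05. That gene was Il15, which sustains natural killer and memory T cells, at 5.64 and 3.71 TPM with R406 and 2.099 and 2.19 TPM with DMSO (log2 0.83 ± 0.24, SE, limma adjusted p = 0.105); it was named after its values were seen.

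The genes with a profile nearest to that of Il33, by Euclidean distance of mean-centred log2(TPM + 1) over the 4 libraries among genes averaging 5 TPM or more, were Grem1 (distance 0.18), Ankrd1 (0.20) and Il1rl1 (0.29). Those nearest to Il1rl1 were Ankrd1 (0.11), Il33 (0.29) and U90926 (0.35). Grem1 measured 9.70 and 11.6 TPM with R406 and 85.7 and 86.0 TPM with DMSO. Ankrd1 measured 3.26 and 4.09 TPM with R406 and 44.0 and 36.4 TPM with DMSO. With 4 libraries in 2 groups, likeness of this kind mostly reflects a difference of the same size between the groups.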
